A study of Mus musculus with 6 samples.

Results

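The probe sets described here are those that an expression array of mouse genes assigned to a single microRNA gene. Members were probe sets that the platform annotation pairs with exactly 1 gene whose symbol is Mir or Mirlet followed by a number, with host genes ending in hg left out. They numbered 957 of 65956 probe sets and stood for 909 gene symbols. In all, 31221 probe sets were paired with 1 gene, 1529 with several and 33206 with none. RefSeq listed the gene of 956 of the 957 members.

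The RNA came from Lineage- c-Kit+ Sca1+ (LSK) cells, the flow-sorted bone marrow fraction that holds blood stem cells and multipotent progenitors. The knockout group was miR-21flox/flox:Mx1-Cre+ and the control group was their miR-21flox/flox:Mx1-Cre- littermates, with 3 arrays each. Both groups carried floxed miR-21 and received pIpC by intraperitoneal injection, 250 μg every other day for 7 doses, starting at 4 to 6 weeks of age, and were used 4 weeks after it. The Mx1 promoter is switched on by interferon, which pIpC induces, in blood cells and in other tissues. Cre was present in the knockout group only, so effects of Cre and of the loss of miR-21 cannot be told apart. Each array was hybridised with complementary DNA from 250 ng of total RNA. The labels do not say whether a replicate was 1 mouse or a pool, so the p-values measure the spread between these arrays.

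A microRNA gene is transcribed as a long primary transcript, often as part of an intron of a protein-coding host gene or as a cluster under 1 promoter. Drosha with Dgcr8 cuts out a hairpin, Dicer1 trims it to a short duplex, and 1 strand is loaded into an Argonaute protein, where its seed, bases 2 to 8, pairs with target messenger RNAs. In blood cells such RNAs are known regulators of lineage choice and inflammation, miR-155, miR-142, miR-146 and miR-223 among them. The annotation pairs a probe set with a microRNA gene, and RNA from that gene can be primary transcript, hairpin or host intron. Where the probes lie relative to the hairpin was not checked, since no array coordinates were used here. The values below are therefore signals of probe sets named for microRNA genes and not levels of mature microRNA.

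The hairpins of 3 genes of known function in blood cells show what such genes encode. They are given 5′ to 3′ from RefSeq (GRCm38.p6), with the stretches that become mature arms in capitals. Mir155 lies at chr16:84714140-84714204 (plus strand) inside the noncoding gene Mir155hg, Mir142 at chr11:87756864-87756927 (plus strand) outside other genes, and Mir146b at chr19:46342762-46342870 (plus strand) within the span of Gm36493.
Mir155: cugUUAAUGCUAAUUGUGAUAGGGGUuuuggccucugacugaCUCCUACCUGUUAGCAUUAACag
Mir142: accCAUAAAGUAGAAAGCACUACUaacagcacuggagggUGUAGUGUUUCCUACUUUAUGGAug
Mir146b: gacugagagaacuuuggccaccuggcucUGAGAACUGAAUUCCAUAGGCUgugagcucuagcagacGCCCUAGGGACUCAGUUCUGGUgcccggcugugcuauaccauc

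The mature sequences of further genes named below are shown with the seed in capitals, from the same source. The 3 let-7 arms shown share 1 seed, the miR-146 pair shares another, and Mir762 and Mir6940 share one more. Arms of Mir30e, Mir29b-1 and Mir7-1 are shown as well. Mir6541 and Mir6963 had the lowest and the highest change among the members that passed the test.
let-7a-5p: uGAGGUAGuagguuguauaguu
let-7d-5p: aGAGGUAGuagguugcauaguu
let-7i-5p: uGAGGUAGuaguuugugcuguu
miR-146a-5p: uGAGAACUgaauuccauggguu
miR-146b-5p: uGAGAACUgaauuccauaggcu
miR-30e-5p: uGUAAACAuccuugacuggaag
miR-29b-3p: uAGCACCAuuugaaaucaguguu
miR-7a-5p: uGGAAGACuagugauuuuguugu
miR-762: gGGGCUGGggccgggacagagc
miR-6940-5p: aGGGCUGGcuggaagguuuuucg
miR-6541: cACAGGCAaggacuucucaag
miR-6963-5p: gGUGGGAUggauggcagaaccugg

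Some members cannot be tied to 1 locus. A total of 44 symbols had several probe sets, 92 in all, and 66 members held the same 6 values as another member. The 957 members thus gave 915 different sets of values. In the largest such set, 9 symbols of the Mir669a group held 1 set of values, 5 of the 6 probe sets of Mir684-1 held another, and both probe sets of Mir763 were identical. For 71 members the array's identifier did not name the chromosome RefSeq gives for the gene, because it named another or none. The identifiers of 37 members named no chromosome.

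Both groups of arrays carried LSK markers, and markers of more mature myeloid cells differed between them. Of 10 LSK markers, 8 had a probe set of their own, not among them Ly6a, which encodes Sca1. Kit, Flt3, Meis1, Hlf, Mecom and Procr were lower in the knockout and Slamf1 was higher. All 8 markers of neutrophils and late precursors rose, with a median change of 1.03 in log2, and all 5 of granulocyte-monocyte progenitors, with 1.71. Their summed levels in log2 were 8.70 to 8.90 in knockout against 7.30 to 7.58 in control arrays, and 11.38 to 11.40 against 9.95 to 10.06. Of 4 megakaryocyte and platelet markers 2 rose, Pf4 by 0.38 and Itga2b by 0.56 (limma adjusted p = 0.0126 and 0.000881), with a summed level in log2 of 7.48 to 7.49 against 7.05 to 7.12. No marker of T cells, B cells, erythroblasts or stroma passed, and the erythroblast marker measured, Alas2, was below the median of the array. The part that these markers of other cells have in the changes below was not tested. In whole sorted samples, fewer cells of a type and less RNA per cell cannot be told apart.

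A smaller share of microRNA probe sets than of other probe sets with 1 gene gave a signal above the middle of the array. Of the 957 members, 479, or 50.1%, had a mean over the 6 arrays above the median of all probe set means, 1.92 in log2. Among the other probe sets with 1 gene the share was 62.3%, and among those paired with no gene it was 38.4%. The share against each array's own median ran from 49.9% to 50.6% over the 6 arrays, with the knockout arrays at 50.4%, 50.6% and 50.2% and the control arrays at 50.2%, 49.9% and 50.4%. The groups overlapped in it. Members ranged from 0.53 to 10.75, and 53 of them, 5.54%, exceeded 6, against 11.8% of the other probe sets with 1 gene. At the cut itself, Mir7222 lay just inside at 1.924 and Mir467a-1 just outside, on the median of 1.923.

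**Figure D1:**
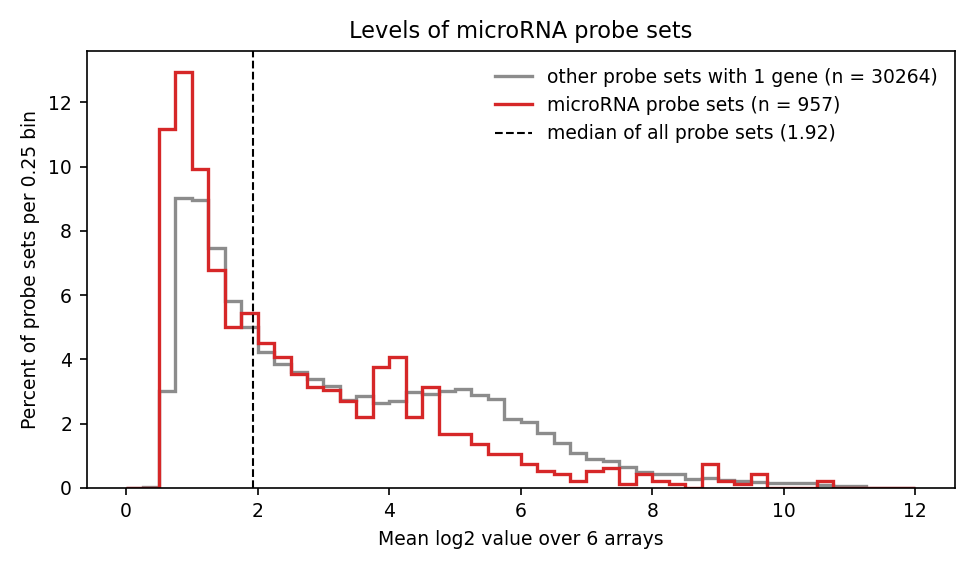
Distribution of mean log2 values over 6 arrays, as percent of probe sets per bin, for the 957 microRNA probe sets (red) and the 30264 other probe sets with 1 gene (grey). The dashed line is the median of all probe sets, 1.92, with 50.1% of the microRNA probe sets and 62.3% of the others to its right.

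Base composition went with the signal. For 753 members the sequence table held the hairpin, with a median G + C content of 50.9%. Of the 94 hairpins under 40% G + C, 9 were above the median, a share of 9.57%. From 40% to 50% it was 58 of 245, or 23.7%, and from 50% to 60% it was 199 of 296, or 67.2%. At 60% or more it was 114 of 118, or 96.6%. Hairpins were matched to probe sets by gene, and 75 of these 753 probe sets could not be placed at the RefSeq locus. Across the 753 probe sets, Spearman's rho of G + C and mean signal was 0.68 and Pearson's r 0.53. They share arrays and normalization and are no independent replicates. Hairpin length had a rho of -0.05. A level below the median at an AU-rich hairpin therefore does not by itself give the abundance of that RNA relative to another, and the part of base composition in the levels was not tested beyond these values. The median G + C content was 55.3% in the 32 hairpins of members that rose, 50.8% in the 34 of members that fell and 57.1% in the 314 that did not pass.

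**Figure D2:**
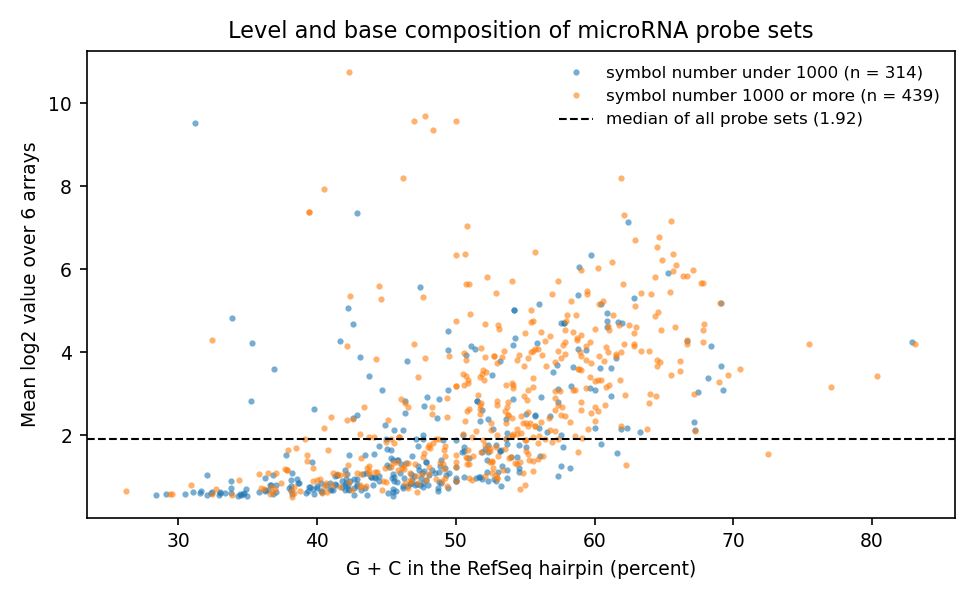
G + C content of the RefSeq hairpin (percent) against the mean log2 value over 6 arrays for 753 microRNA probe sets, coloured by the number in the gene symbol. Signals climb with G + C content in both number classes (Spearman's rho 0.68 under 1000 and 0.61 at 1000 or more).

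Genes known from blood, and genes known from other tissues, were chosen as lists with earlier results of these data known. The first list joined 55 blood genes and, beyond these, the let-7 genes. Of all of these together, 45 had a probe set of their own, and 21 of the 45, 46.7%, were above the median. Blood genes without a probe set of their own included Mir21a, Mir223, Mir125a, Mir126a and Mir17. Of 40 genes known for muscle, brain, liver, pancreas, epithelium or embryonic stem cells, 27 were measured, and Mir375, a gene of pancreatic islets, was above the median at 2.32. The other 26 were below it. The median hairpin G + C content was 47.4% in the first list and 46.1% in the second. By symbol number, which follows the order in which microRNAs were named, 159 of 451 members under 1000 were above the median, or 35.3%, and 320 of 506 at 1000 or more, or 63.2%. Median hairpin G + C content in these classes was 47.2% and 53.0%.

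The knockout was compared with control for every probe set above the median, 32977 in all, with limma's moderated test and Benjamini-Hochberg adjustment at 0.05. Across them, 24.9% passed, 11.5% as higher and 13.4% as lower. Among the 18862 with 1 gene that is no microRNA, 25% passed, 15% as higher and 10% as lower. Of the 479 members above the median, 33 were higher in the knockout, or 6.89%, and 59 were lower, or 12.3%, and 387 did not pass. Both shares of members lie below those of the whole table, while the lower share lies above that of the other probe sets with 1 gene. At least 2-fold lower were 19 members of 18 genes, or 3.97%, against 1.66% of all probe sets tested, and 0 were at least 2-fold higher, against 0.349%. For the other probe sets with 1 gene these shares were 0.61% and 0.461%. The groups did not overlap in 159 members, or 33.2%, against 45% of all and 48.5% of the others with 1 gene. The median change was 0.06 in log2 over the 479 members and 0.04 over all 32977. Counted once per set of values, 33 were higher and 58 lower. Without knockout replicate 2 the count of higher members was 15, and without control replicate 1 it was 18.

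**Figure D3:**
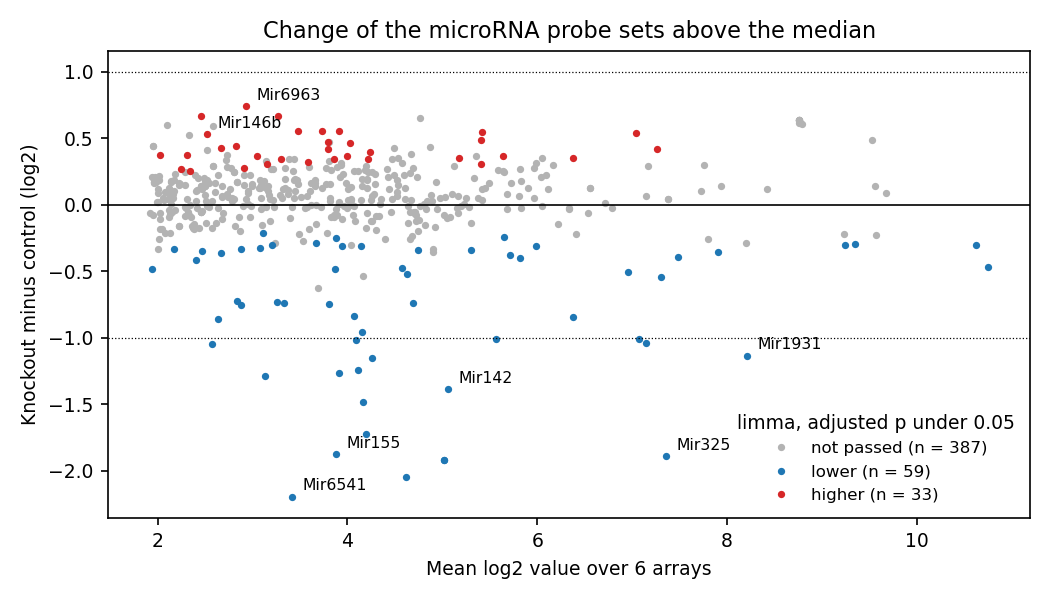
Change from control to knockout in log2 against the mean log2 value over 6 arrays for the 479 microRNA probe sets above the median. Blue points (59) were lower and red points (33) higher at an adjusted p under 0.05 by limma. The dotted lines mark 2-fold, passed by 19 blue points and no red one.

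Mir155, processed from the noncoding transcript Mir155hg and known for its induction in activated immune cells, was the lowest of the blood genes. Its values were 3.20, 2.82 and 2.83 in the knockout arrays and 5.09, 4.85 and 4.52 in control. All 3 control arrays lay above all 3 knockout arrays, a difference of -1.87 ± 0.16 (SE, n = 3 arrays per group), 3.66-fold, with an adjusted p of 0.000225 by limma. Mir155hg had no probe set of its own. Mir142, a gene marking blood cells as a whole, had 4.48, 3.99 and 4.64 in knockout and 5.86, 5.60 and 5.82 in control. It fell by 1.39 ± 0.16 in log2 (limma adjusted p = 0.00102), without overlap. A second probe set, shared by Mir142 and Mir142b and so not a member, was at 2.10, 2.81 and 2.30 against 3.33, 3.48 and 3.04, also lower (-0.88 ± 0.19, limma adjusted p = 0.0129).

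Mir29b-1, of a family known to repress extracellular matrix and DNA methylation genes, was at 2.50, 2.38 and 2.56 in knockout and 3.17, 3.24 and 3.20 in control. The groups lay well apart for their spread, with a change of -0.73 ± 0.07 (limma adjusted p = 0.000387). The paralogous locus, read by a probe set shared among A330023F24Rik, Mir29c and Mir29b-2, changed by -0.60 ± 0.07 (limma adjusted p = 0.00088). Mir29a, whose hairpin neighbours Mir29b-1, was below the median at 0.85.

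Let-7 genes are known as brakes on growth and on progenitor programmes, and GAGGUAG is the seed of the 5p arms shown above. Of 14 probe sets of the let-7 family, 6 were above the median, 2 of them fell and none rose. Of all probe sets tested, 13.4% were lower and 11.5% higher, and 6 probe sets are too few to set the family apart from these shares. Mirlet7d was at 2.88, 2.93 and 2.96 in knockout and 3.26, 3.35 and 3.12 in control (-0.32 ± 0.07, limma adjusted p = 0.0182). Mirlet7i was at 2.68, 2.59 and 2.87 against 3.01, 2.96 and 3.17 (-0.33 ± 0.09, limma adjusted p = 0.036). In neither gene did the groups overlap. Both calls rested on single arrays by limma: Mirlet7d had an adjusted p of 0.056 without control replicate 2 and 0.0631 without knockout replicate 1, and Mirlet7i one of 0.0511 to 0.101 with any array but knockout replicate 3 left out. Mirlet7a-1, the neighbour of Mirlet7d on chromosome 13, had a change of 0.10 and did not pass.

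Mir146b and Mir193b were the 2 blood genes that rose. Mir146b, known as a brake on NF-kB signalling together with Mir146, was at 2.73, 2.83 and 2.79 in knockout and 2.39, 2.17 and 2.20 in control. The lowest knockout array lay above the highest control array, a change of 0.53 ± 0.08 (limma adjusted p = 0.00278). Mir146, the gene of miR-146a, shares its 5p seed but was below the median in both groups, at 0.80 ± 0.15 (SD, n = 3 arrays) and 0.76 ± 0.10. Mir193b, described as a regulator of stem cell expansion, was at 4.00, 4.15 and 3.86 against 3.56, 3.51 and 3.67 (0.42 ± 0.09, limma adjusted p = 0.0121). Of 10 measured genes of an NF-kB inducible list, 3 were above the median, and they went different ways: Mir155 fell, Mir146b rose, and Mir212 had a change of 0.14 without passing.

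The other 14 blood genes above the median did not pass. Among them were Mir23a, Mir27a and Mir24-2, 1 cluster known in myeloid and lymphoid cells, with changes of -0.02, -0.03 and -0.12. Mir27a was at 6.31, 6.36 and 6.29 in knockout and 6.26, 6.37 and 6.41 in control, with overlapping groups and an SE of 0.07. Mir150, a gene of mature lymphocytes, had -0.12 ± 0.09, and Mir486, a gene of red cell precursors, 0.21 ± 0.11. Mir106b, inside Mcm7, was the gene of the miR-17 clusters above the median among 6 measured. It was at 2.83, 3.71 and 3.60 against 3.76, 4.20 and 4.06, a change of -0.63 ± 0.23 that did not pass (limma adjusted p = 0.078). It did so with array weights (limma adjusted p = 0.0476). Genes below the median and not tested included Mir125b-1, Mir125b-2, Mir99a, Mir100, Mir130a, Mir132, Mir221, Mir222, Mir34a and Mir181a-2, several of which are known from stem cells.

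The members with the lowest change were mostly of other kinds. Mir6541, inside the phosphoinositide-binding adaptor gene Wdfy2, was at 2.29, 2.96 and 1.71 in knockout and 4.74, 4.75 and 4.05 in control (-2.19 ± 0.31, 4.57-fold, limma adjusted p = 0.00237). The groups did not overlap, and the knockout arrays had an SD of 0.62. Wdfy2 had no probe set of its own, and a probe set it shares with Mir8098 changed by -0.58 ± 0.08. Mir6920, within the span of the elongation factor gene Aff4, was at 3.75, 3.52 and 3.52 against 5.61, 5.92 and 5.39 (-2.05 ± 0.14, limma adjusted p = 8.01e-05). Both probe sets of Mir763 held 4.25, 4.01 and 3.92 against 6.06, 6.08 and 5.79, a fall of 1.92 ± 0.11 in log2 (limma adjusted p = 5.41e-05) that counts once.

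Mir325 differed between its probe sets. One, placed by its identifier on chromosome 13, was at 6.43, 6.28 and 6.53 in knockout and 8.55, 8.40 and 7.96 in control (-1.89 ± 0.15, limma adjusted p = 0.000159). The other, on chromosome X where RefSeq places the gene, was below the median in both groups, at 0.88 ± 0.04 and 1.04 ± 0.11 (SD, n = 3 arrays). The fall is thus shown for the first probe set and not for the RefSeq locus. Mir8115, which rose by 0.56 ± 0.13 (limma adjusted p 0.0159, and 0.0522 without control replicate 2), likewise has its probe set on chromosome 11 and its RefSeq hairpin on chromosome 5.

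Mir5123, inside the galactosyltransferase gene B4galt1, was at 3.99, 3.004 and 3.02 against 5.75, 4.80 and 4.63 (-1.72 ± 0.34, limma adjusted p = 0.0101). In each group replicate 1 was the highest. Mir6973a, inside the lymphotoxin beta gene Ltb, was at 3.11, 3.62 and 3.55 against 4.84, 4.68 and 5.21 (-1.48 ± 0.17, limma adjusted p = 0.000887), without overlap. The next were Mir505 (-1.28 ± 0.35), Mir28c (-1.26 ± 0.13) and Mir5098 (-1.24 ± 0.23). Mir505 had 1.59 in knockout replicate 2 against 2.96 and 2.91 in the other knockout arrays, and by limma it did not pass without any 1 of the control arrays (adjusted p of 0.0531 to 0.096). Chosen after their values were seen, Mir7-1 (-1.15 ± 0.14), Mir1931 (-1.13 ± 0.08), Mir677 (-1.01 ± 0.11) and Mir30e (-0.96 ± 0.09) were also lower in all 3 knockout arrays. Mir30e was at 3.83, 3.60 and 3.62 against 4.76, 4.66 and 4.49.

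The 12 highest changes among members that passed ran from 0.47 to 0.74. Mir6963, inside the integrin gene Itga5, was at 3.01, 3.44 and 3.47 in knockout and 2.53, 2.51 and 2.65 in control (0.74 ± 0.13, limma adjusted p = 0.00502). Mir7081, inside the maintenance DNA methyltransferase gene Dnmt1, was at 3.09, 2.69 and 2.59 against 2.13, 2.20 and 2.03 (0.67 ± 0.13, limma adjusted p = 0.00834). Mir3088, inside the adenylate kinase gene Ak8, was at 3.65, 3.45 and 3.71 against 2.49, 2.91 and 3.40 (0.67 ± 0.20, limma adjusted p = 0.047). Its groups lay apart by little, since control replicate 3 was at 3.40 and the lowest knockout array at 3.45, and of the 6 fits with 1 array left out it passed by limma only in the one without control replicate 3. The remaining ones were Mir8115, Mir1929 in the autophagy gene Atg5, Mir6378, Mir1962, Mir6924, Mir146b, Mir7037, Mir3085 and Mir7016. Of these 12, Mir146b carries a number under 1000. Numbers under 1000 were carried by 7 of the 33 members that rose and by 31 of the 59 that fell. Of the 159 members tested with such numbers, 4.40% rose and 19.5% fell. Of the 320 at 1000 or more, 8.1% rose and 8.75% fell, beside 11.5% and 13.4% of all probe sets tested. The 31 falls include 12 of the Mir297, Mir466, Mir467 and Mir669 families and both identical probe sets of Mir763. Leaving out 1 array also ended the limma call of Mir1962 (without control replicate 2 or 3 or knockout replicate 2 or 3, adjusted p up to 0.107), Mir6378 (without knockout replicate 2 or 3, up to 0.0876), Mir3085 (without control replicate 1 or knockout replicate 3, up to 0.0609), Mir6924 (without control replicate 1 or knockout replicate 2, up to 0.0549) and Mir7037 (without replicate 3 of either group, up to 0.0557).

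**Figure D4:**
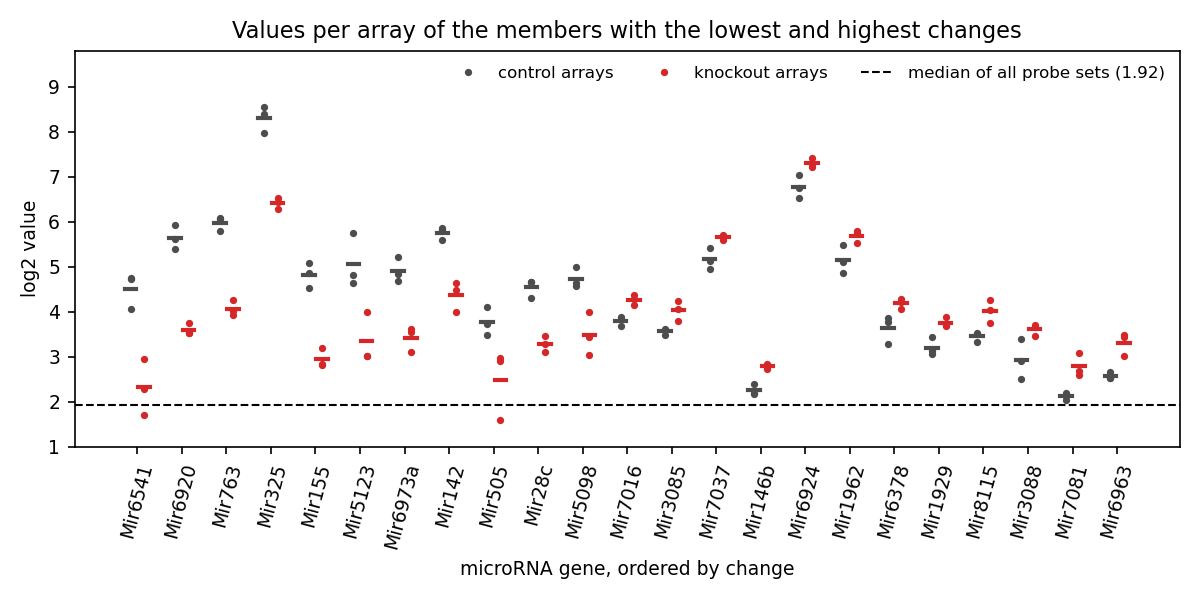
Log2 values of each array for the members that passed with the lowest and the highest changes, ordered by change (points, 3 control arrays in grey and 3 knockout arrays in red, horizontal bars at the group means). Mir763 stands once for its identical pair of probe sets. The groups do not overlap in any gene shown, which adds no support, since the genes were chosen by these same values. The falls at the left, up to 2.19, exceed the rises at the right, up to 0.74.

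Of the 10 members with the strongest signal, 4 fell and 6 did not pass, beside 13.4% lower and 11.5% higher of all probe sets tested. None of the 10 but Mir703 could be placed at 1 RefSeq locus. The changes of the others are thus shown for the probe sets and not for the loci. Mir3473a was at 10.55, 10.58 and 10.41 in knockout and 11.04, 11.03 and 10.87 in control, lower by -0.47 ± 0.08 (limma adjusted p = 0.00489). This probe set is on chromosome 15 by its identifier and RefSeq places the hairpin on chromosome X. Its second probe set was below the median at 0.87. Of the pair of probe sets of Mir3470b, 1 was lower (-0.30 ± 0.08, limma adjusted p = 0.0334) and the other had a change of -0.22 without passing (limma adjusted p = 0.0806). RefSeq places Mir3470b on chromosome 16. By the identifiers, the probe set that did not pass is on that chromosome and the one that was lower is not. Mir1191 and Mir669e fell by 0.30 each. By its identifier the Mir1191 probe set is not on chromosome 7, where RefSeq places the hairpin. A probe set on chromosome 7 shared by BC024978 and Mir1191 changed by -0.09 ± 0.06 and did not pass (limma adjusted p = 0.332). The second probe set of Mir669e was below the median at 1.04. The calls of Mir3470b, Mir1191 and Mir669e were lost in most fits with 1 array left out, with adjusted p up to 0.106, 0.0787 and 0.143 by limma. Those of Mir3473f, Mir1954, Mir6240, Mir703 and Mir684-1 did not pass. The brightest probe set of Mir684-1 was at 8.88, 9.10 and 9.29 in knockout and spread over 7.84, 8.62 and 8.98 in control, so that the groups overlapped.

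The Mir297, Mir466, Mir467 and Mir669 families, known for a large cluster of repeated hairpins within the Polycomb gene Sfmbt2, moved in 1 direction where they passed. Of 86 probe sets, 29 were above the median, 12 fell, or 41.4%, none rose and 17 did not pass, beside 13.4% lower of all probe sets tested and 12.3% of all members tested. Their median change was -0.18, against 0.04 over all probe sets tested. The 12 falls ranged in size from 0.21 (Mir466m) to 0.51 (Mir669h). Mir297a-3, Mir466f-2, Mir466h, Mir466m and Mir669f lie in the span of Sfmbt2, whose own change was -0.05 ± 0.07 and did not pass. The other falls were in Mir466f-1, Mir466f-3, Mir467f, Mir669e, Mir669h and Mir669m-2. These symbols had several probe sets each and could not be placed at 1 locus. Both probe sets fell in Mir466f-1, but only 1 in each of the others. The second probe set was below the median in Mir669e (1.04), Mir669h (1.22) and Mir669m-2 (1.06). In Mir466f-3 and Mir467f it was above the median and did not pass. Several of the 86 probe sets share values with others, such as Mir467a-3, Mir467a-6 and Mir467a-10. Sequence similarity within the families means that their signals are uncertain as to the locus, so the falls are not independent loci. In the Dlk1-Dio3 cluster, a run of hairpins on chromosome 12 expressed from the maternal copy, 15 of 46 probe sets were above the median, 1 rose (Mir299b, 0.27) and none fell.

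Members inside a gene could be set beside that gene. By RefSeq, 370 members lay inside another gene on the same strand, in 327 host genes, and 211 of them were above the median, with 19 higher and 19 lower (9.0% each), beside 11.5% and 13.4% of all probe sets tested. Of 56 members on the opposite strand of a gene, 27 were above the median, with 3 higher (Mir3085, Mir5108 and Mir762) and 1 lower (Mir378b). Of 212 members outside other genes, 77 were above the median, with 6 higher (7.79%) and 6 lower (7.79%). Of the 119 members that could not be placed, 73 were above the median, with 2 higher (Mir8115 and Mir6351, 2.74%) and 17 lower (23.3%). For 181 same-strand members both member and host were above the median. Across these pairs, which share arrays, Spearman's rho between the changes was 0.33 and Pearson's r 0.29.

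Of the 32 of these members that passed, the host passed in the same direction for 8, in the opposite direction for 3, and did not pass for 21. For the members that did not pass, the host was higher for 19, lower for 17 and did not pass for 113. Among all probe sets tested 24.9% passed in either direction. Ltb, the host of Mir6973a, was at 5.60, 5.54 and 5.50 in knockout and 6.69, 6.51 and 6.56 in control, a change of -1.04 ± 0.07 beside -1.48 of the member. Itga5, the host of Mir6963, rose by 0.38 ± 0.10 beside 0.74. B4galt1, the host of Mir5123, was at 5.80, 5.71 and 5.77 against 5.65, 5.70 and 5.57, a change of 0.12 ± 0.07 that did not pass, beside -1.72 of the member. Nfyc, the host of Mir30e, had -0.05 ± 0.07, Hnrnpk, the host of Mir7-1, -0.20 ± 0.07, and Atp5b, the host of Mir677, 0.08 ± 0.06, none of which passed. The 3 pairs in opposite directions were Mir1962 (0.55) with the phosphatase gene Ptpre (-0.46 ± 0.07), Mir301b (-0.41) with 2610318N02Rik (0.69 ± 0.11) and Mir6933 (-0.47) with Pgs1 (0.26 ± 0.06). The difference between a member's change and its host's was not tested.

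**Figure D5:**
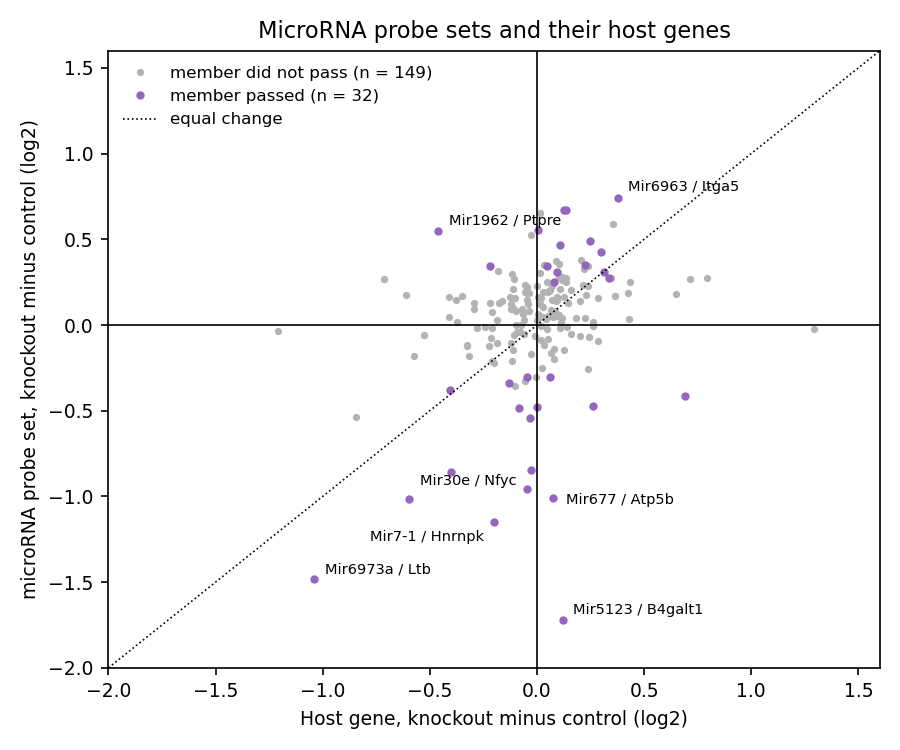
Change of the host gene against change of the microRNA probe set, both knockout minus control in log2, for 181 same-strand pairs with both above the median. Purple points (32) are members that passed by limma. Mir5123 at -1.72 and its host B4galt1 at 0.12 lie far from the dotted line of equal change, and Mir6973a at -1.48 and Ltb at -1.04 closer to it.

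For 200 further members inside a gene the relative strand was not tabulated, so that an antisense position cannot be told from a sense one. Of these 200, 91 were above the median, with 3 higher (3.30%) and 16 lower (17.6%), beside 11.5% and 13.4% of all probe sets tested. In 67 of the 200 both member and spanning gene were above the median. Among those 67, 15 members were lower, and in 7 of the 15 the spanning gene was lower too. Mir1931 lies within the kinase gene Cdk17 (-0.92 ± 0.07), Mir1938 within Ifrd1 (-0.87 ± 0.06), Mir28c within Samd12 (-0.64 ± 0.07), Mir5098 within the repressor gene Rest (-0.60 ± 0.09) and Mir6920 within Aff4 (-0.71 ± 0.07). The others of the 7 are Mir1b within Mib1 (-0.32 ± 0.08) and Mir7015 within Smap2 (-0.26 ± 0.07). In the other 8 the spanning gene did not pass: Mir6979 (-1.04) lies within Diaph1 (-0.12 ± 0.06), Mir6900 (-0.83) within Ndufa10 (0.10 ± 0.10), Mir1192 (-0.74) within Klf9 (-0.23 ± 0.08), and the 5 named above within Sfmbt2. Over both strand classes, 12 of the 19 members that fell at least 2-fold lie in a gene measured above the median. That gene was lower in 8 and did not pass in 4.

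By mature sequence, 791 members had at least 1 arm in the table, with 1267 arms and 1061 different seeds. A seed was shared by at least 2 member genes in 136 cases. With at least 2 members that passed there were 3: the let-7 seed, with Mirlet7d and Mirlet7i lower, GAGGGAG, with Mir3103 and Mir6965 both higher by 0.37, and GGGCUGG. The last joined a member that rose and one that fell. Mir762 was at 4.31, 4.66 and 4.33 against 4.04, 4.17 and 3.90 (0.40 ± 0.11), and Mir6940 at 3.82, 4.09 and 4.08 against 4.28, 4.34 and 4.28 (-0.31 ± 0.09). In the miR-30 seed family, GUAAACA, 2 of 5 genes were above the median, and Mir30e was the one that fell.

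The genes of the pathway that makes and uses microRNAs were measured by probe sets of their own for 21 of 25, and 20 were above the median. Of these 20, 2 rose, 5 fell and 13 did not pass, beside 11.5% higher and 13.4% lower of all probe sets tested. The enzymes that cut the precursors, Drosha (-0.16 ± 0.07) and Dicer1 (-0.15 ± 0.08), did not pass, nor did the exporter Xpo5 (0.20 ± 0.07). The Argonaute genes Ago1 and Ago2 fell. Ago2, which encodes the slicing Argonaute, was at 6.67, 6.67 and 6.70 in knockout and 7.33, 7.34 and 7.20 in control (-0.61 ± 0.06, limma adjusted p = 0.000638), and Ago1 had -0.40 ± 0.09 (limma adjusted p = 0.0151). Tut7 and Tut4, uridylyl transferases that tail let-7 precursors, fell as well. Tut7 was at 6.45, 6.18 and 6.42 against 7.42, 7.36 and 7.30 (-1.01 ± 0.09, limma adjusted p = 0.000237), and Tut4 had -0.49 ± 0.07 (limma adjusted p = 0.00279). Tnrc6c (-0.23 ± 0.07), an Argonaute partner, was lower, and Tarbp2 (0.22 ± 0.07), a partner of Dicer1, and Ran (0.23 ± 0.06), which drives export, were higher. Tarbp2 and Ran did not pass after the arrays were aligned on their medians, and without control replicate 2 the genes that fell numbered 3 and those that rose 0.

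The targeted gene had no probe set of its own. Mir21a lies at the end of Vmp1, and a probe set annotated to both was at 5.65, 5.64 and 5.76 in knockout and 5.65, 5.60 and 5.63 in control. The groups overlapped, with a change of 0.05 ± 0.06 (limma adjusted p = 0.592) and a two-sided exact permutation p of 0.4, where 0.1 is the smallest that 3 against 3 arrays can give. This probe set reads Vmp1 as well, so it does not check the deletion.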

How the data were processed

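Affymetrix arrays of 3 knockout and 3 control LSK samples were used. The deposited values are log2 signals per probe set that the authors obtained with RMA, per the submitters' processing notes. The log base was read from the range of the values, and the RMA version and genome build are not given in the sources used here. Array medians ran from 1.90 to 1.95, and arrays of the same group correlated at 0.9953 to 0.9969. Array number limits the precision.

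Probe sets were named from the platform annotation, and 33 with only a miRBase name and 220 shared with other genes were not members. Probe sets at or below the median of all means, 1.92, were not tested. limma 3.58.1 (R 4.3.3) was fitted to all 32977 others, with knockout minus control as the contrast and all p-values adjusted together. A member's change is a difference of group means, with its SE. The script was tested on simulated data. Same-numbered replicates were not treated as pairs: their correlations were 0.175, 0.197 and 0.071.

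Named with values were the 12 highest and 12 lowest changes that passed, the 10 strongest signals, Mir21a, the blood list and host genes. Members and lists were chosen with earlier results of these data known. Hairpin, mature and promoter tables came from RefSeq (GRCm38.p6).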

Additional observations from a re-analysis of the deposited data

Results flagged for a closer look

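Probe sets annotated to a microRNA gene together with other genes lie outside the 957 members, and 22 of them were higher in the knockout than in control by limma (adjusted p under 0.05). Of 220 such probe sets 185 were above the median, 27 were lower and 136 did not pass. Over the 185, the counts of 22 and 27 lie near the shares of all probe sets tested, 11.5% higher and 13.4% lower. The probe set shared by Mir223, a gene of granulocytes, and F630028O10Rik was at 6.60, 6.43 and 6.72 in knockout and 5.33, 4.71 and 5.20 in control. Its change was 1.5 ± 0.16 (limma adjusted p = 0.000614). The neutrophil markers, all 8 of them higher in the knockout, moved the same way, and their part in this change was not tested. The probe set over Mir17hg and its 6 hairpins, a cluster known for promoting growth, was at 4.13, 4.01 and 3.91 against 4.57, 4.50 and 4.57 (-0.53 ± 0.07, limma adjusted p = 0.00226). Slpi with Mir7678 had 1.07 ± 0.12 and Hoxb4 with Mir10a 0.27 ± 0.06. In these probe sets the signal of the microRNA gene and that of the other gene cannot be told apart.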

How the results depend on the processing

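Leaving out 1 array gave 15 to 42 higher members and 42 to 52 lower ones, and a median change of 0.03 to 0.09. The share above the median was then 50.4% to 51.1%. For the pathway genes, leave-one-out gave 0 to 1 higher and 3 to 6 lower. A block for the replicate number gave 56 higher members, and 1 pathway gene higher. A 1.5-fold limit with unadjusted p gave 13 higher and 30 lower members, and 0 higher and 2 lower pathway genes. Without the filter on dim probe sets the median change was 0.01, with 1 pathway gene higher. With each array centred on its median, 0 pathway genes were higher and 5 lower. The share above the median was 37.8% against the median of probe sets with 1 gene, 50.7% on knockout arrays alone, 49.7% per gene and 45.6% where all 6 arrays had to exceed their medians. Counting identical probe sets once, chosen after seeing the data, gave 50.8%. No call changed direction. The cause of these moves was not tested. Of 52 changes of named members, 32 passed, and 19 of these did so under every alternative run. Those that missed the threshold in at least 1 were Mir1191, Mir1962, Mir3085, Mir3088, Mir3470b, Mir505, Mir6378, Mir669e, Mir6924, Mir7037, Mir8115, Mirlet7d and Mirlet7i. Of the 20 that did not pass, 15 passed under none. Dim probe sets limit what these arrays show, since 478 members lay at or below the median.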
